A study of Arabidopsis thaliana with 6 samples.

Results

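This account covers 43 genes of Arabidopsis thaliana that were silent in wild-type (WT) leaves and were read in RNA-directed DNA methylation (RdDM) mutants. The genes were chosen by measured reads: at most 1 read in each of the 2 WT libraries and at least 8 reads in 1 or more of 4 mutant libraries. They are 43 of 32947 genes in the tables and 43 of the 11620 genes that had at most 1 read in each WT library. Leaf mRNA came from plants 3 weeks old and grown in constant light, all in ecotype Columbia-0. The mutants carried nrpe1-11, idn2-1, the alleles idn2-1, idnl1-1 and idnl2-1 together (the triple mutant), or idnl1-1 with idnl2-1 (the double mutant). Each mutant had 1 library and WT had 2. Because the same libraries chose the genes, and each mutant has 1 library, the values below are descriptions with no test.

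RdDM is a plant pathway that places cytosine methylation on transposons and on some genes and keeps them silent. RNA polymerase IV starts the small RNAs of the pathway, and RNA polymerase V, whose largest subunit is NRPE1, makes transcripts at the target to which the small RNAs pair. IDN2 binds RNA and acts in a complex with its relatives IDNL1 and IDNL2, downstream of the small RNAs. A gene kept silent by this pathway can be transcribed where the pathway is lost, while many other genes are silent in leaves because they belong to another organ.

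Reads per gene were recovered from the deposited RPKM (reads per kilobase of gene span, scaled to the reads of the library), and 1 read that the tables add to every gene was taken off. Depth was 3078153 reads in nrpe1, 2884772 in idn2, 2793873 in the triple mutant and 5819494 in the double mutant, against 2737943 in WT replicate 1 and 5975802 in WT replicate 2. A gene of 2 kb at 0 reads may have had up to 3 reads, which is 0.541 RPKM in the first WT library and 0.250 RPKM in the deeper one. These limits are higher for shorter genes and for silent genes with 1 read, and intervals and limits cover counting error only. Ratios to WT and their intervals use the counts that chose the genes, so the choice alone places them above 1. NRPE1 had 138 reads in the nrpe1 library, against 53 and 202 in WT, and reads over the whole gene do not check that label. IDN2 likewise had 118 reads in the idn2 library and 136 in that of the triple mutant, against 163 and 337 in WT. IDNL1 had 1 read in the triple mutant and 6 in the double mutant, against 50 and 144 in WT, and IDNL2 had 5 and 11 reads in the same mutants, against 14 and 46 in WT.

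Of the 43 genes, most reached 8 reads in nrpe1. At least 8 reads were found for 34 of them in nrpe1, 3 in idn2, 1 in the triple mutant and 9 in the double mutant. As shares of the 11620 genes silent in WT, the counts are 0.293% (nrpe1), 0.0258% (idn2), 0.00861% (triple mutant), 0.0775% (double mutant) and 0.37% over all mutants. These shares are the choice itself and show how few silent genes reached 8 reads. Of the 43 genes, 40 reached 8 reads in 1 mutant, 2 in 2 mutants and 1 in 3 mutants. The genes that reached 8 reads in nrpe1 and in no other mutant number 31, and 18 of these had 0 reads in all 5 other libraries. In WT, 23 genes had 0 reads in both libraries, 17 had 1 read in the pair and 3 had 2. The choice depends on WT replicate 2: with WT replicate 1 as the sole WT library the rule takes 254 genes, of which 87 reach 8 reads in nrpe1 and 197 in the double mutant, so nrpe1 then no longer has the most. With the 8 reads scaled to library depth, the double mutant has 2 genes and nrpe1 31.

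**Figure D1:**
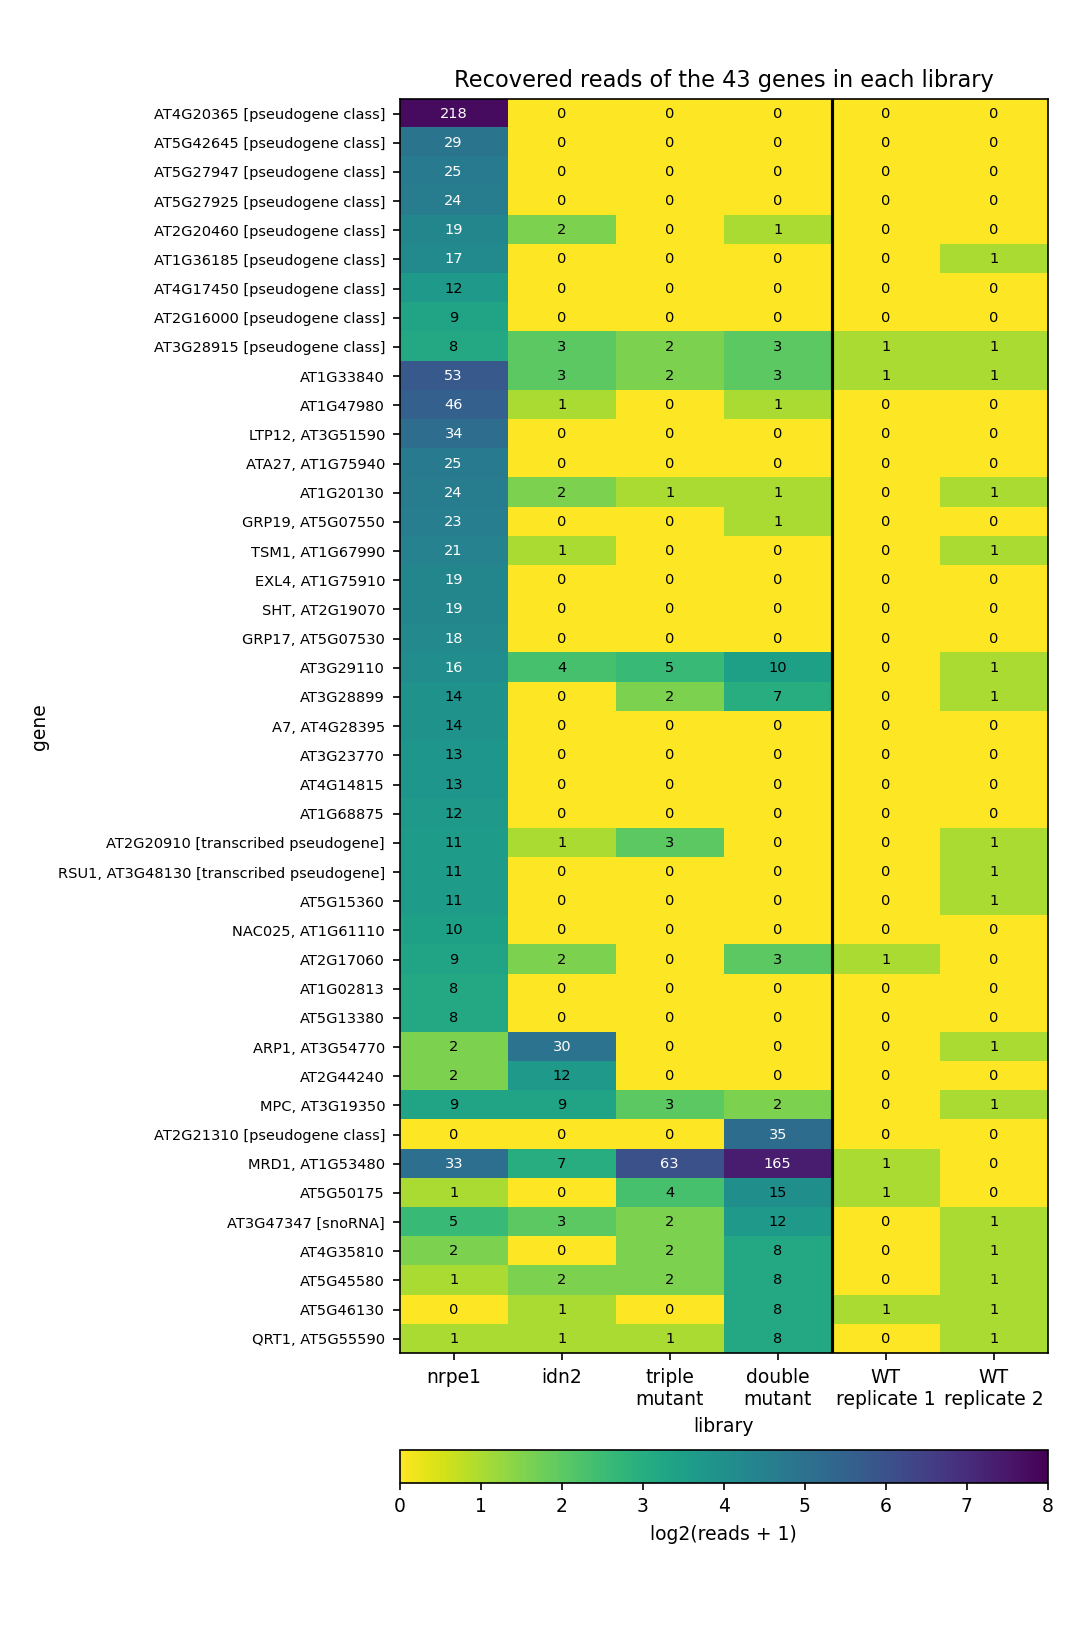
Recovered reads of the 43 genes (rows) in the 4 mutant and 2 WT libraries (columns), with the number of reads in each cell and colour giving log2(reads + 1). Rows are grouped by the mutant with the highest RPKM. The upper rows are highest in nrpe1, led by AT4G20365 with 218 reads.

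**Figure D2:**
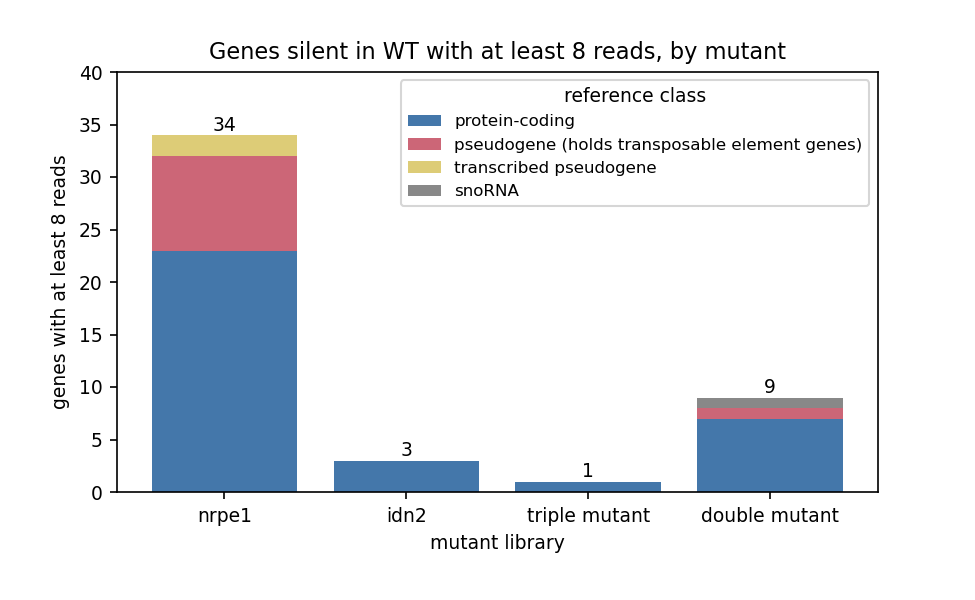
Number of the 43 genes with at least 8 reads in each mutant library (x axis), stacked by gene class in the reference annotation. The bars reach 34 genes in nrpe1, 3 in idn2, 1 in the triple mutant and 9 in the double mutant; a gene read in several mutants counts in each.

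The first group is made of genes that the reference annotation puts in the class pseudogene, a class that there also holds transposable element genes. It has 10 of the 43 genes, 9 of them read in nrpe1 and 1 in the double mutant. AT4G20365 (chromosome 4, 10993402 to 10998726, TAIR8) had 218 reads in nrpe1 and 0 in idn2, the triple mutant, the double mutant and both WT libraries. This is 13.2 RPKM in nrpe1 and a level 206-fold above WT, with the WT pair set at a floor of 3 reads. The 206-fold is not a lower limit, because the 218 reads carry no counting error in it. AT4G20365 stood apart from the other pseudogene-class genes, whose highest counts were 8 to 35 reads.

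AT5G42645 (chromosome 5, 17108166 to 17113029) had 29 reads in nrpe1, AT5G27947 had 25 and AT5G27925 had 24, and each had 0 reads in the 5 other libraries. AT4G17450 and AT2G16000 had 12 and 9 reads in nrpe1 and also 0 elsewhere. So 6 of the 9 nrpe1 genes of this class, AT4G20365 included, were read in that library alone. AT2G20460 had 19 reads in nrpe1, 2 in idn2, 0 in the triple mutant and 1 in the double mutant, against 0 in both WT libraries. AT1G36185 had 17 reads in nrpe1 and 0 in the other mutants, against 0 and 1 in WT. AT3G28915 was the weakest, with 8 reads in nrpe1, 3 in idn2, 2 in the triple mutant and 3 in the double mutant, against 1 and 1 in WT, and the groups differ there by few reads. The annotation names no protein function for these loci.

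The pseudogene-class gene of the double mutant had no read in nrpe1. AT2G21310 (chromosome 2, 9129703 to 9132293) had 35 reads in the double mutant and 0 in nrpe1, idn2, the triple mutant and both WT libraries. Against the floor it stood 17.5-fold above WT. It thus had no read in the triple mutant, which carries the same idnl1-1 and idnl2-1 alleles, at a depth of 2793873 reads.

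Pseudogene-class genes were 23.3% of the 43 (10 genes), 31.9% of all genes silent in WT and 11.8% of all genes. Among genes silent in WT, 0.243% of the 3707 in this class reached 8 reads in nrpe1, beside 0.381% of the 6030 protein-coding ones. The share among the chosen genes was 8.33% without the nrpe1 library, an alternative added after seeing the data, and 7.48% without WT replicate 2. The 10 genes were long, with a median span of 4442 bases (2590 to 5324) beside 2033 for all silent genes of the class, and a long span collects more reads at the same level. By RPKM their highest values ran from 0.570 to 2.40 apart from AT4G20365.

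What the rule did not use is where these genes lie. Among the 20 nearest genes of each, 10 on each side, the median number in the pseudogene class was 2 for the 10 genes, against 14 for all 3707 silent genes of the class. At least 10 of the 20 neighbours were in the class for 1 of the 10 genes, AT1G36185, and for 68.0% of the 3707. Among the 1197 silent pseudogene-class genes with spans in the same range, the median was 13 and the share 65.8%, so the figures were close to those of the whole class. The other 33 genes of the 43 had 0 to 6 such neighbours, with a median of 0, the same median as for silent genes of other classes. With 10 genes this is a description and was not tested.

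**Figure D3:**
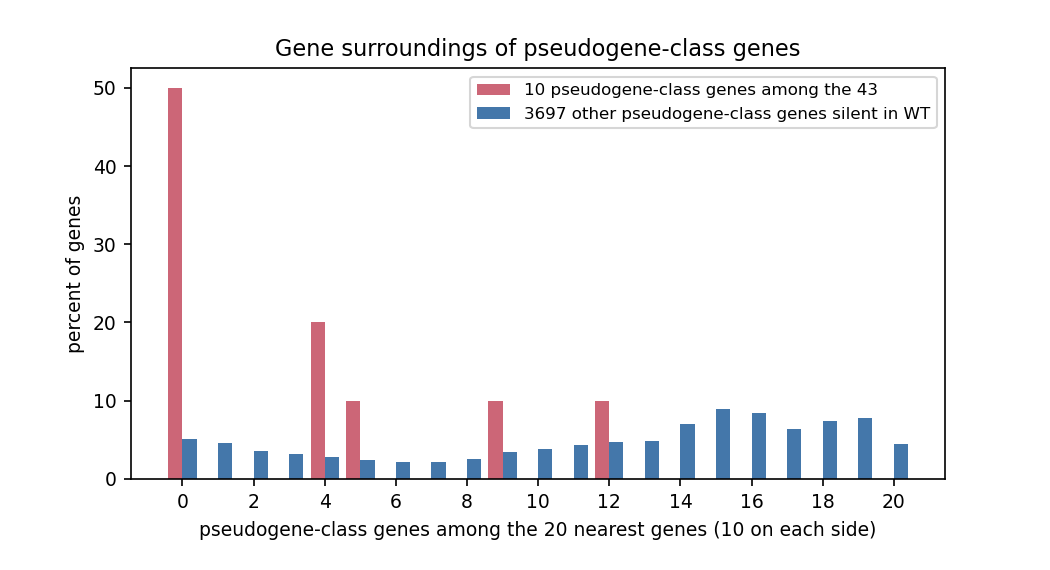
Number of pseudogene-class genes among the 20 nearest genes (x axis) and percent of genes with that number (y axis), for the 10 pseudogene-class genes of the 43 (red, left bar) and the 3697 other pseudogene-class genes silent in WT (blue, right bar). The 10 genes lie at 0 to 12, with 5 of them at 0, and the others spread up to 20.

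Outside the 43, silent genes of the class had scattered reads. The 3697 silent pseudogene-class genes outside the 43 together had 58.8 RPM in nrpe1 (reads scaled to library depth as in RPKM, without gene length), 15.3 in idn2, 17.9 in the triple mutant and 25.9 in the double mutant, against 8.04 and 10.04 in WT, where the rule holds each gene at 1 read or fewer. In nrpe1, 103 of these genes had a read and 19 had at least 3. In idn2, 38 had a read and 1 had at least 3, in the triple mutant the numbers were 36 and 3, and in the deeper double mutant 112 and 9. With genes read in WT included, the class outside the 43 has 3880 genes. These summed to 2501 RPM in nrpe1, 2168 in idn2, 2130 in the triple mutant and 2790 in the double mutant. The WT sums were 2136 in replicate 1 and 2658 in the deeper replicate 2, so nrpe1 lay between them. The deeper libraries, the double mutant and WT replicate 2, had the highest sums, and among the others nrpe1 had the highest. Over silent genes of all classes outside the 43, nrpe1 had 1145 reads (372 RPM), idn2 664 (230), the triple mutant 570 (204) and the double mutant 1787 (307), against 424 (155) and 961 (161) in WT. In RPM, reads on silent genes outside the 43 were thus highest in nrpe1 over all classes as well. The rule holds these genes at 1 read in each WT library and allows up to 7 in a mutant, which by itself places mutants above WT. The 8 heat-activated ONSEN copies, retrotransposons of the same class, had 0 reads in every library. The sources used here do not say how reads matching several copies were placed, so levels of single repeated loci are uncertain.

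The second group, also read in nrpe1, is made of anther genes. The tapetum is the cell layer of the anther that feeds pollen and makes much of its coat, and leaves have none. A list of 30 tapetum and anther genes held 12 genes silent in WT, and 6 of these are among the 43: LTP12, ATA27, GRP19, EXL4, GRP17 and ATA7 (A7 in the reference). Of all 11620 genes silent in WT, 0.37% are among the 43. The list was chosen with earlier results of these data known, so its overlap with the 43 is not independent of them. None of the 6 reached 8 reads in another mutant.

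LTP12 (AT3G51590, chromosome 3, 19146644 to 19147654), a lipid transfer protein, had 34 reads in nrpe1 and 0 in the other 5 libraries. Against the floor it stood 32.1-fold above WT. ATA27 (AT1G75940), a beta-glucosidase-like protein, had 25 reads in nrpe1 and 0 in all others. GRP19 (AT5G07550), an oleosin-like glycine-rich protein, had 23 reads in nrpe1, 1 in the double mutant and 0 in idn2, the triple mutant and both WT libraries. Oleosin-like proteins of this kind are found in the pollen coat. EXL4 (AT1G75910), an extracellular lipase, had 19 reads in nrpe1, GRP17 (AT5G07530), also of the pollen coat, had 18, and ATA7 (AT4G28395), related to lipid transfer proteins, had 14, each with 0 reads elsewhere. All 6 had no read in idn2, in the triple mutant or in either WT library.

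Another 3 of the 43 genes, TSM1, SHT and NAC025, are known from the tapetum without being on the list, and were picked out after their values were seen. TSM1 (AT1G67990), a tapetum O-methyltransferase, had 21 reads in nrpe1, 1 in idn2, 0 in the triple mutant and 0 in the double mutant, against 0 and 1 in WT. SHT (AT2G19070), which joins hydroxycinnamic acids to spermidine, had 19 reads in nrpe1 and 0 elsewhere; its span overlaps AT2G19060, which had 6 reads in nrpe1 and 0 elsewhere. NAC025 (AT1G61110), a transcription factor, had 10 reads in nrpe1 and 0 elsewhere. AT4G14815, of the lipid transfer protein superfamily, and AT3G23770, of glycosyl hydrolase family 17, had 13 reads each in nrpe1 and 0 elsewhere. None of these 5 genes had more than 1 read in any single library other than nrpe1. QRT1, a pollen gene among the 43 that is also not on the list, went the other way. It had 1 read in nrpe1 and 8 in the double mutant.

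Reads differed between neighbouring family members of the anther genes, and the read minimum and WT limit of the rule by themselves part some of them. EXL4 and ATA27 lie 7.89 kb apart with 2 genes between them, EXL5 (AT1G75920) with 3 reads in nrpe1 and EXL6 with 7. GRP17 and GRP19 lie 3.79 kb apart on either side of GRP16, which had 0 reads in every library. GRP20, next to GRP19, had 11 reads in nrpe1, 2 in idn2, 0 in the triple mutant and 4 in the double mutant, against 0 and 3 in WT. GRP14 and GRP18 had 4 and 3 reads in nrpe1.

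**Figure D4:**
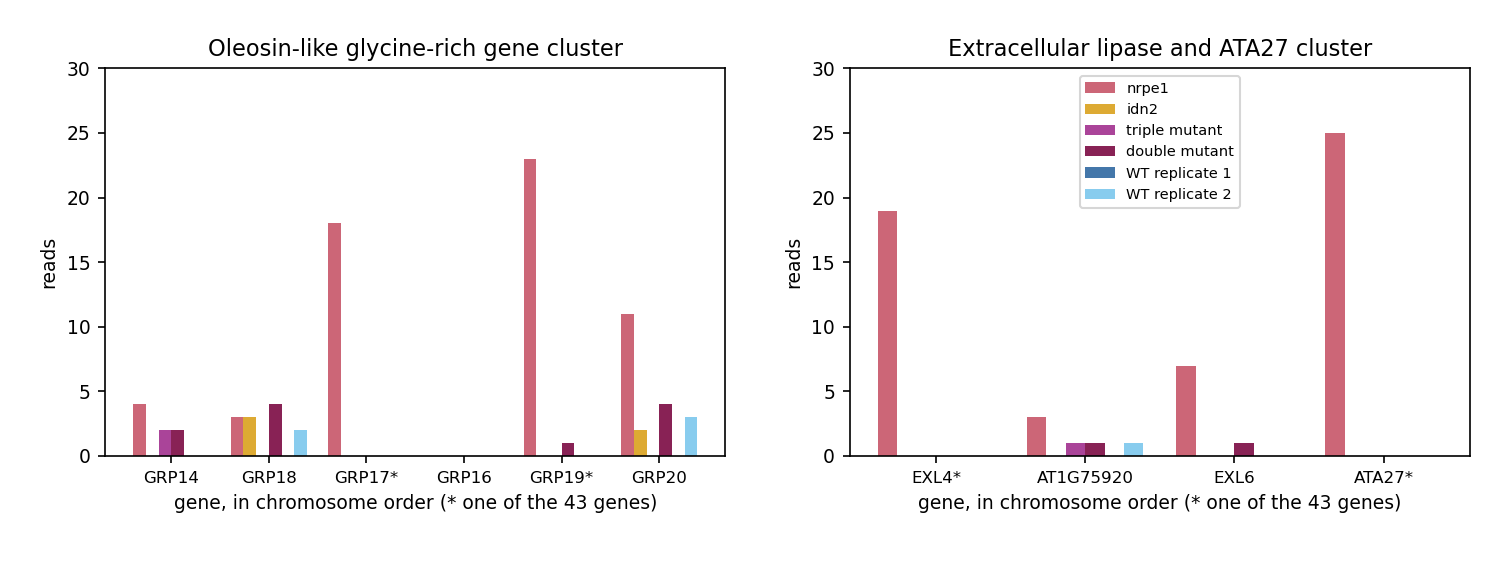
Reads (y axis) of the genes in the oleosin-like glycine-rich cluster of chromosome 5 (left) and the extracellular lipase and ATA27 cluster of chromosome 1 (right), in chromosome order, with 1 bar per library. The genes marked with an asterisk belong to the 43; their bars of 18 to 25 reads are in nrpe1.

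Markers of flowers, taken as sums, moved with this group. Outside the 43, the other 24 genes of the tapetum list summed to 135 RPM in nrpe1, 63.1 in idn2, 56.6 in the triple mutant and 69.6 in the double mutant, against 79.3 and 98.6 in the WT libraries. Over the whole list, 27 of 30 genes had a read in nrpe1, 9 in idn2, 9 in the triple mutant and 14 in the double mutant, against 14 and 20 in WT; GRP16, MYB80 and DYT1 were at 0 in nrpe1. The 11 floral organ identity genes summed to 61.1 RPM in nrpe1, 22.9 in idn2, 21.1 for the triple mutant and 20.4 in the double mutant, against 29.2 and 42.3 in WT. Both sums were thus highest in nrpe1, and those of WT lay above those of the other 3 mutants. Gene by gene, nrpe1 had the highest RPM for 15 of the 24 tapetum genes and 7 of the 11 floral organ genes. Among the other floral organ genes, SEP1 had 14.3 RPM in nrpe1, against 14.97 and 18.1 in WT, and LFY had 0.325, against 0.365 and 1.67. SHP1, at 0.650 in nrpe1, lay below WT replicate 2 (0.669), and SHP2, at 0.975, lay below the triple mutant (1.07).

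Some pollen wall genes of the list were read in nrpe1 and WT and not in the other mutants; the ones named here were picked out after their values were seen. MEE48 (AT4G14080) had 37 reads in nrpe1 and 0 in idn2, the triple mutant and the double mutant, against 9 and 20 in WT. ACOS5, which makes a precursor of the pollen wall, had 20 reads in nrpe1 and 0 in the other mutants, against 10 and 17 in WT. MS2, of the same route, had 10 reads in nrpe1 and 0 in the other mutants, against 1 and 7 in WT. The 6 listed genes among the 43 had no read in WT. The rule left these 3 out for their WT reads, so this difference follows largely from the choice. Other genes of the pollen wall route were read in every library. TKPR2 had 81 reads in nrpe1, 96 in idn2, 70 in the triple mutant and 192 in the double mutant, against 82 and 214 in WT. DRL1 had 31, 29, 21 and 53 reads in the same mutants, against 31 and 77 in WT, and LAP6 had 58, 25, 26 and 56, against 38 and 94. LAP5 lay between, with 12, 1, 1 and 3 reads in the mutants, against 9 and 16 in WT.

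Leaf identity was clear in all libraries: the 11 leaf photosynthesis genes were all read, with sums of 3701 RPM in nrpe1, 3930 in idn2, 3867 in the triple mutant and 2199 in the double mutant, against 3930 and 2144 in WT. The 2 deeper libraries had the lower sums, since these genes together had 10761 to 12815 reads in every library whatever its depth. The sums therefore do not compare leaf content between libraries, and why the reads hardly rose with depth was not tested. The 25 RdDM pathway genes had higher sums in the deeper libraries, 790 RPM in the double mutant and 769 in WT replicate 2. In the other libraries they summed to 615 to 697 RPM. RPM sums of other lists, the flower lists included, and ratios to WT may thus also shift with depth. The 6 root hair genes had 0 to 3 reads in any library, and of 14 seed storage and oil body genes 11 were silent in WT and none of these reached 8 reads in a mutant. The part that flower markers have in the anther reads was not tested, and in bulk tissue fewer cells of a type and less RNA per cell cannot be told apart.

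**Figure D5:**
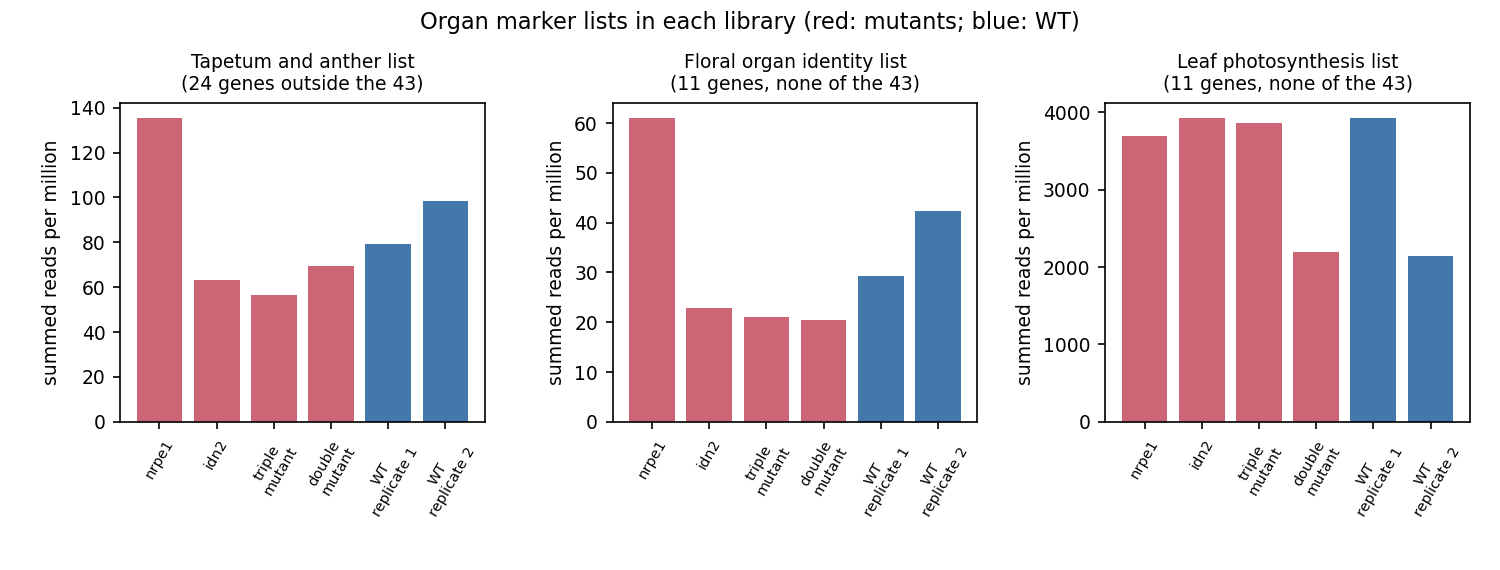
Summed reads in RPM (y axis, 1 scale per panel) of 3 marker lists in each library (x axis; mutants red, WT blue): 24 tapetum and anther genes outside the 43, 11 floral organ identity genes and 11 leaf photosynthesis genes. The sums of both flower lists are highest in nrpe1, at 135 and 61.1; the photosynthesis sums are lowest in the 2 deeper libraries.

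The other protein-coding genes read in nrpe1 have mixed or unknown roles. AT1G33840 (chromosome 1, 12283842 to 12285330), a LURP-one-like protein, had 53 reads in nrpe1, 3 in idn2, 2 in the triple mutant and 3 in the double mutant, against 1 and 1 in WT, a ratio of 75.0 to WT (exact 95% binomial interval 19.8 to 636). AT1G47980 (chromosome 1, 17695503 to 17697536), a desiccation-like protein, had 46 reads in nrpe1, 1 in idn2, 0 in the triple mutant and 1 in the double mutant, against 0 in both WT libraries. These were the 2 protein-coding genes with most reads in nrpe1. AT1G20130, a GDSL-like lipase, had 24 reads in nrpe1 and 1 or 2 in each other mutant, against 0 and 1 in WT.

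AT3G28899 (chromosome 3, 10903564 to 10903752) has a span of 188 bases, so its 14 reads in nrpe1 gave 25.6 RPKM. It had 0 reads in idn2, 2 in the triple mutant and 7 in the double mutant, against 0 and 1 in WT. RSU1 (AT3G48130), a transcribed pseudogene related to ribosomal protein L13, likewise reached 21.9 RPKM on 11 reads in nrpe1, with 0 reads in the other mutants and 0 and 1 in WT. High RPKM in these genes rests on short spans and few reads. AT1G68875 had 12 reads in nrpe1 and 0 elsewhere. AT5G15360 and the transcribed pseudogene AT2G20910 had 11 reads each in nrpe1, AT2G17060, a disease resistance gene of the TIR-NBS-LRR class, had 9, and AT1G02813 and the GH3 family gene AT5G13380 had 8 each.

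Genes shared between mutants were 3, and 2 of them are on a list of 15 genes that are imprinted or respond to DNA methylation. MRD1 (AT1G53480, chromosome 1, 19966882 to 19968380) had 33 reads in nrpe1, 7 in idn2, 63 in the triple mutant and 165 in the double mutant, against 1 and 0 in WT. It was the one gene at 8 or more reads in the triple mutant. Its span overlaps HEI10, a meiotic crossover gene with 52, 16, 81 and 214 reads in nrpe1, idn2, the triple and the double mutant, against 5 and 19 in WT, and without strand the reads cannot be told apart. With overlapping genes left out, 40 of the 43 remained and the triple mutant had 0.

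MPC (AT3G19350, chromosome 3, 6705499 to 6706133), an imprinted gene for the C-terminal domain of poly(A)-binding proteins, had 9 reads in nrpe1, 9 in idn2, 3 in the triple mutant and 2 in the double mutant, against 0 and 1 in WT. Its highest level, 5.41 RPKM in idn2, was 27.2 times the WT pair (3.77 to 1192). AT3G29110 (chromosome 3, 11083389 to 11087128), of the terpenoid cyclase superfamily, had 16 reads in nrpe1, 4 in idn2, 5 in the triple mutant and 10 in the double mutant, against 0 and 1 in WT. At least 1 read in all 4 mutants was found for these 3 genes and for AT3G28915, AT1G33840, AT1G20130, AT3G47347, AT5G45580 and QRT1.

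The rest of the methylation list had 3 reads or fewer in each mutant or was not silent in WT. Of the 9 listed genes silent in WT, 7 are not among the 43. This list too was chosen with earlier results of these data known. FWA, a homeobox gene silenced by methylation in vegetative tissue, had 1 read in nrpe1, 0 in idn2, 0 in the triple mutant and 3 in the double mutant, against 0 in both WT libraries. FIS2 had 2, 0, 1 and 1 reads in the same mutants, against 0 in WT. HDG3 had 1 read in nrpe1, SUP had 0 in the mutants and 1 in WT replicate 1, and MEA, HDG9 and AGL36 had 0 reads in every library. SDC, which falls outside the rule, had 36 reads in nrpe1, 9 in idn2, 5 in the triple mutant and 22 in the double mutant, against 6 and 19 in WT. ROS1, a DNA demethylase gene that methylation keeps active, had 48 reads in nrpe1, 23 in idn2, 16 in the triple mutant and 101 in the double mutant, against 188 and 514 in WT. Of 25 RdDM pathway genes, DRM1 was the one silent in WT, with 0 reads in nrpe1, 1 in idn2, 0 in the triple mutant and 1 in the double mutant. None of the 4 silent genes on a list of 11 defence genes reached 8 reads.

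In idn2, 2 genes reached 8 reads that did not do so elsewhere. ARP1 (AT3G54770, chromosome 3, 20284694 to 20286876), a nuclear RNA-binding protein that affects seed germination in the presence of abscisic acid, had 30 reads in idn2, 2 in nrpe1 and 0 in the triple and double mutants, against 0 and 1 in WT. The ratio to the WT pair was 90.6 (15.1 to 3697). AT2G44240 (chromosome 2, 18296900 to 18299421), of a family with the DUF239 domain, had 12 reads in idn2, 2 in nrpe1 and 0 in the triple and double mutants, against 0 in WT. Both genes therefore had no read in the triple mutant, which carries idn2-1 as well.

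In the double mutant, 7 genes reached 8 reads that did not do so elsewhere. After AT2G21310, described above, AT5G50175 had 15 reads in the double mutant, 1 in nrpe1, 4 in the triple mutant and 0 in idn2, against 1 and 0 in WT. The snoRNA gene AT3G47347, whose span is 76 bases, had 12 reads in the double mutant, 5 in nrpe1, 2 in the triple mutant and 3 in idn2, against 0 and 1 in WT. At 29.2 RPKM it had the highest RPKM of the 43 genes, on a short span. AT4G35810, an oxygenase family gene, AT5G45580, a homeodomain-like gene, AT5G46130 and QRT1 (AT5G55590), a pectin methylesterase that separates pollen grains, had 8 reads each in the double mutant. QRT1 overlaps AT5G55600, which had 405 reads in the double mutant, against 127 and 387 in WT. The 4 genes at 8 reads had 0 to 2 reads in each other library, and the double mutant was sequenced more deeply than the other mutants.

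Neighbouring genes were examined for genes that reached 8 reads in nrpe1 or the double mutant, and not for those that did so in idn2 alone. A gene next to or overlapping one of the 34 nrpe1 genes stood at least 2-fold above both WT libraries, with at least 8 reads, in 3 cases: HEI10 beside MRD1, RLP43 beside AT3G28899 and GRP20 beside GRP19. These are 8.82% of the 34 genes, beside 1.12% of all genes silent in WT. The reads of HEI10 cannot be told apart from those that chose MRD1, so that case is not a separate rise. The 8 reads asked of a neighbour leave out genes such as EXL6 beside ATA27, with 7 reads in nrpe1, and AT2G19060, which overlaps SHT, with 6. Both had 0 reads in the WT libraries. The shares were not tested. RLP43, a receptor-like protein gene, had 12 reads in nrpe1, 4 in idn2, 3 in the triple mutant and 13 in the double mutant, against 1 and 7 in WT. In the double mutant 1 of the 9 genes, MRD1, had such a neighbour, beside 0.8% of silent genes, and that neighbour is again HEI10. Within 50 kb of each other lie 4 pairs of the 43: EXL4 with ATA27, GRP17 with GRP19, AT3G28899 with AT3G28915 at 15.04 kb, and the pseudogene-class AT5G27925 with AT5G27947 at 25.3 kb. In each pair both genes reached 8 reads in nrpe1, as did 34 of the 43 genes. The number of such pairs among all genes silent in WT was not counted.

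The edge of the choice is thin. At exactly 8 reads in the highest mutant stood 7 of the 43 genes: AT1G02813, AT3G28915 and AT5G13380 in nrpe1 and AT4G35810, AT5G45580, AT5G46130 and QRT1 in the double mutant. At exactly 7 reads, just outside, stood 5 genes: EXL6, AT2G03850, AT3G29639 and AT5G19097 (pseudogene class) in nrpe1, and AT3G09590 in the triple and double mutants. Of the 43 genes, 36 reached 1 RPKM in a mutant and 7 did not, and the lowest peak value was 0.570 RPKM, in AT3G28915.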

How the data were processed

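Leaf mRNA libraries followed an Illumina TruSeq protocol per the labels, and groups were taken from the genotype labels. The deposited values are RPKM per gene as computed by the authors on TAIR8 gene models, the build named with the deposited tables; the submitters' processing notes name Bowtie. Its version, and the handling of strand, duplicates and multi-mapped reads, are not given in the sources used here. RPKM times the gene span (stop minus start, introns included) was a whole multiple of each library's smallest product for 100% of genes, within 1e-06. The multiple minus 1 was taken as reads, since the lowest multiple was 1 and never 0. Recovery was checked on simulated tables built with the same added read, which cannot show that the deposited tables add it. Deposited starts were taken to count from 0 and 1 was added to each position.

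Symbols and classes came from the TAIR10.1 annotation by gene ID, which matched 32377 IDs and not 570; all 43 genes matched. Its coordinates and sequence were not used, because the builds differ, so promoter motifs were not searched. Ratios compare the mutant with the highest RPKM with the summed WT pair after scaling to library depth, with exact 95% binomial intervals. Genes at 0 in the pair were set at 3 counts. Their mutant counts were taken without error, so these ratios are not lower limits. The labels do not say whether the WT libraries are separate plants. The genes and lists were chosen with earlier results of these data known, and no list was tested. Named by rule were 19 genes: the 15 with the highest RPKM, those at 8 reads in 2 or more mutants, and those on a list; the other 24 were named after their values were seen. Software was pandas 2.3.3, scipy 1.17.1, numpy 2.4.6, matplotlib 3.10.9 and Python 3.11.15.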

Additional observations from a re-analysis of the deposited data

How the results depend on the processing

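Of all mutants nrpe1 had the most genes under each alternative that kept it, except without WT replicate 2 (double mutant 197) and by RPKM (triple mutant 2055). With at least 5 reads the counts were 91 in all, 54 in nrpe1, 6 in idn2, 5 for the triple and 37 for the double mutant; with 12 reads the double mutant had 4; with 20 reads the counts were 14 in all, 12 in nrpe1, 1 in idn2 and 2 in the double mutant. Genes with 0 reads in both WT libraries numbered 23, 21 in nrpe1, 1 in idn2, 0 for the triple and 1 for the double mutant; with up to 2 WT reads the double mutant had 23. Scaling the 8 reads to depth gave 2 in the double mutant, and leaving out overlapping genes gave 0 in the triple mutant. Leaving out 1 WT library gave 48 to 254 genes in all, 35 to 87 in nrpe1, 3 to 20 in idn2, 1 to 15 for the triple and 13 to 197 for the double mutant, with 7.48% to 25.0% in the pseudogene class; the higher counts are without the deeper WT replicate 2. At least 1 RPKM in place of 8 reads took 2245 genes (1963 in nrpe1, 2009 in idn2, 2055 for the triple and 1330 for the double mutant, 6.06% pseudogene class), because 1977 of them passed in a library with 0 reads, where the added read alone exceeds 1 RPKM on a short span. Leaving out nrpe1, chosen after seeing the data, left 12 genes, 8.33% of them in the pseudogene class. Leaving out the tapetum list, also chosen then, left 37. The other 41 values stayed within 1.5 times the count given or, for the class share, within 11.8% to 38.6%, its exact 95% binomial interval. No paired analysis was possible because each mutant is 1 library and no result comes from a test. The planned search of promoters for motifs was not run.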
